A study of Acipenser sturio with 24 samples.

Results

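Among 275906 assembled transcript components of whole sturgeon embryos, 86 were near 0 until the middle of neurulation, stood clearly above it at the end of neurulation and were still present at the last stages sampled. They were chosen from the deposited values. A component was taken when it was below 1 in each of the 13 libraries from NF 0 to NF 16 (Nieuwkoop-Faber stages, the staging table of the frog Xenopus), at least 2 in each of the libraries of NF 18, 19 and 20 with a mean of at least 5 there, and below 300 everywhere. Its mean over NF 32, 35 and 36 also had to be at least 25% of its mean over NF 18 to 20. The onset and the persistence of these components are therefore what they were selected for, and values at those stages alone are given as a description without a test. Some fits below include libraries of NF 32 to 36, and neither onset nor persistence is read from them.

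The libraries were made from Bester hybrids, a cross of beluga (Huso huso) and sterlet (Acipenser ruthenus) sturgeon. The labels' organism field instead names Acipenser sturio. There was 1 library of total RNA depleted of ribosomal RNA for each of 24 stages, numbered as on the NF scale. All embryos were kept in 0.1 X MMR, a dilute salt medium, and no treatment or genotype other than the cross was compared. The number of embryos and clutches behind a library is not given in the labels, and no stage had a replicate.

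Late neurulation is the time when the neural folds meet and the neural plate closes into a tube, from which the brain and spinal cord form. Beside the tube the paraxial mesoderm is divided into somites, which give rise to muscle and the axial skeleton, and neural crest cells begin to leave the dorsal midline. Sturgeons are ray-finned fishes whose eggs cleave completely, as amphibian eggs do, and the labels number their stages by a frog table. Transcripts that are absent from the egg and accumulate only at this time are made by the embryo itself. The files do not pair component identifiers with gene names, so no function is given for any of the 86 components, and only 4 are called by their identifier.

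Deposited values are abundances that had been normalized before deposit, and their depth in reads is unknown. Column totals lay between 342953 at NF 12.5 and 679612 at NF 36. From NF 13 on, the libraries were split into 2 sets that alternate irregularly, with nothing in the labels to tell them apart. Principal component 1 of the residuals about a smooth curve of stage order, over 2499 abundant components that included none of the 86, held 30.0% of the residual variance. It had one sign in the 6 libraries of NF 13, 16, 19, 24, 29 and 36, called set B here, and the other in the remaining 9, called set A. The split is by sign alone, and signs before NF 13 were not used. The weight of NF 36 on this component was only 0.097, against 0.433 for NF 29. Principal component 2 held 20.9% of the residual variance. Both sets were among the libraries the components were chosen on and tested in, so values are also given without set B. With the same rule on the other libraries alone, 174 components were found, of which 64 were among the 86. These 64 were 74.4% of the 86 and 36.8% of the 174.

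Before NF 18 the 86 components were close to undetected. Their median was 0 at NF 0, 0.05 at NF 4, 0 in each library from NF 8 to NF 12, and 0.05 at NF 12.5. It was 0.09 at NF 13, 0.10 at NF 13.5, 0.25 at NF 15 and 0.42 at NF 16. Exact zeros were listed for 59 of them at NF 0, 35 at NF 4, 62 at NF 11, 30 at NF 13.5, 12 at NF 15 and 8 at NF 16. In the table as a whole, components above 0 numbered 29906 at NF 0, 55224 at NF 4, 33241 at NF 11 and 95106 at NF 16, so the number of zeros moved with how many components a library listed at all. None of the 86 was at 0 in all 13 early libraries, and 12 were at 0 in each library from NF 0 to NF 12. For 39 of the 86 the highest early value was at NF 16, below the limit that the rule sets. The level at NF 15 and 16 was thus low but not 0 for most of them.

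At NF 18 the median was 4.63, with a range of 2.03 to 33.4. It was 6.86 at NF 19 and 9.00 at NF 20. In bulk RNA of whole embryos, fewer cells of a type and less RNA per cell cannot be told apart, so these levels are embryo averages. The difference between NF 18 and NF 16 had a median of 4.09 and ran from 1.41 to 32.6. At NF 18 the value had a median of 28.0% of the component's own highest value. That highest value is from a single library and is not a lasting later level. The median of the 86 was 4.63 at NF 18 and 6.49 at NF 36 in deposited values. The scale factors used for the tests were 0.833 at NF 18 and 1.47 at NF 36. The order of these medians thus depends on the scaling, and no rise is read from them. Only 15 of the 86 stood at 0.5 times their highest value or more at NF 18. NF 20 was above NF 18 in 80 of the 86. The order of NF 18, 19 and 20 was ascending in 38 components, while NF 19, a set B library, was the highest of the 3 in 34 and the lowest in 13.

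**Figure D1:**
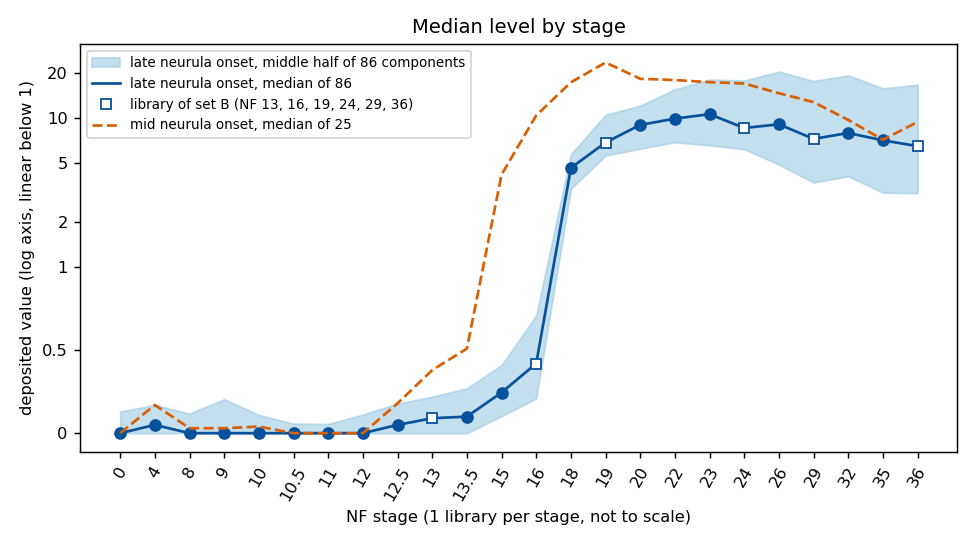
Median deposited value of the 86 components in each library, with the lower to upper quartile shaded and set B libraries as open squares, and the median of 25 components with mid neurula onset as a dashed line. The vertical axis is logarithmic above 1 and linear below it. The median of the 86 is 0.42 at NF 16 and 4.63 at NF 18, and is highest at NF 23 (10.6).

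The median of deposited values was highest at NF 23, with 10.6, and stood at 9.91 at NF 22. The scale factors used for the tests were 1.15 at NF 23 and 1.01 at NF 22, so this order depends on the scaling. It was 8.58 at NF 24, 9.08 at NF 26, 7.25 at NF 29, 7.94 at NF 32, 7.09 at NF 35 and 6.49 at NF 36. The summed value of the 86 took another course, since a few components became abundant. They held 0.0089% of the summed value of all components at NF 16 and 0.0889% at NF 18. Their share was 0.213% at NF 22, 0.321% at NF 26 and 0.204% at NF 36. The 10 components with the highest single values made up 17.3% of the summed value of the 86 at NF 18, 49.8% at NF 26 and 44.9% at NF 36. These 10 were picked by their highest values, so a larger share in the libraries that hold those values follows from the pick. Without such a pick, 1 of the 86 stood at 20 or more at NF 18, 22 at NF 26 and 20 at NF 36. Among components listed at 1 or more, the median of the 86 lay at the 71.5th percentile at NF 18, the 87.6th at NF 23 and the 84.0th at NF 36. It was at the 88.5th at NF 29, where the median was only 7.25. Components at 1 or more numbered 26417 at NF 18, 39583 at NF 23, 60863 at NF 29 and 55234 at NF 36. The percentile thus also depends on how many a library lists.

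The highest value of a component was reached at NF 18 to 20 in 21 of the 86, at NF 22 to 24 in 30, at NF 26 and 29 in 19, and at NF 32 to 36 in 16. By single library, 14 components were highest at NF 22, 12 at NF 19, 11 at NF 26, and 9 each at NF 23 and 36. The highest value itself ran from 6.10 to 194, with a median of 16.6. It was at least 50 in 12 components and at least 100 in 8. Relative to the mean of NF 18 to 20, the highest value was 1.09 to 25.5 times as large, with a median of 2.06. No shared time of maximum was therefore seen in deposited values after the shared time of onset. The scale factors were 0.833 at NF 18 and 1.47 at NF 36, so the stage of a maximum can depend on the scaling. Of the 86 maxima, 36 (41.9%) lay in set B, which holds 4 of the 11 libraries from NF 18 on.

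**Figure D2:**
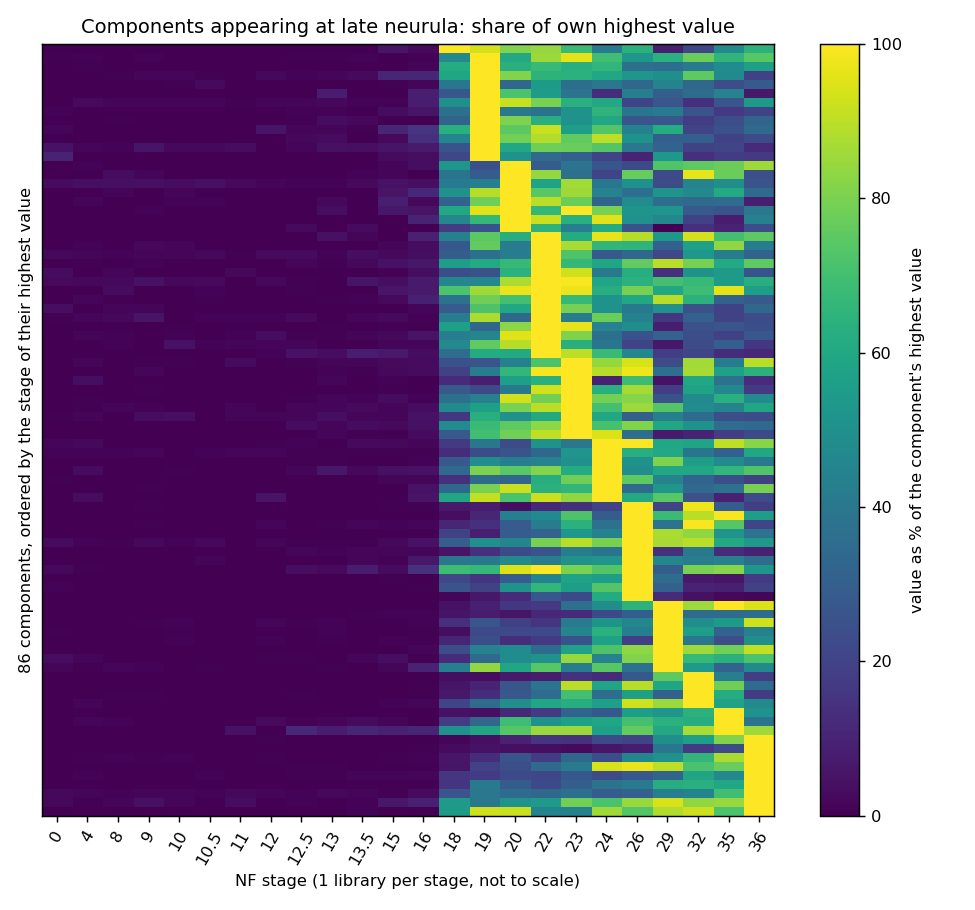
Each row is 1 of the 86 components and each column 1 library from NF 0 to NF 36. Colour gives the value as a percentage of the component's own highest value, and rows are ordered by the stage of that highest value. Every cell before NF 18 has a deposited value below 1, as the rule requires. At NF 18 the percentage runs from 1.4% to 100%, with a median of 28.0%, so some rows are still dark there. The highest values lie between NF 18 and NF 36.

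The level at the end of the series separated the components further. The ratio of the mean of NF 32 to 36 to the mean of NF 18 to 20 ran from 0.257 to 16.5, with a median of 1.08. The lower bound comes from the rule. These are ratios of deposited values. The scale factors used for the tests were 0.833, 0.939 and 1.03 at NF 18, 19 and 20, and 1.28, 1.25 and 1.47 at NF 32, 35 and 36. Scaled values would thus give lower ratios, and the groups below were not formed on them. The ratio was at least 2 in 25 components, at most 0.5 in 25, and between these in 36. In the 25 that ended higher, the median was 4.74 at NF 18, 9.59 at NF 20, 19.2 at NF 23, 42.7 at NF 29 and 33.2 at NF 36. In the 36 in between, it was 4.48 at NF 18, 8.02 at NF 20, 10.1 at NF 23, 5.36 at NF 29 and 6.30 at NF 36. In the 25 that ended lower, it was 4.70 at NF 18, 8.99 at NF 20, 7.13 at NF 23, 3.43 at NF 29 and 2.81 at NF 36. NF 29 and 36 are set B libraries. At NF 26 and 32, in set A, the medians were 24.3 and 33.4 in the group that ended higher. They were 7.63 and 7.72 in the group in between, and 4.23 and 2.66 in the group that ended lower. At NF 18 to 20 the medians of these 3 groups lay close together, and they diverged afterwards. The groups were formed by the end ratio, so their divergence by NF 32 to 36 follows from the grouping. The word lasting is to be read with the last group in mind, since 8 of the 86 were below 1 in at least 1 library from NF 18 on, and 1 of these was listed at 0 at NF 29.

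The most abundant component over NF 18 to 20 stood at 33.4 at NF 18, 14.5 at NF 19 and 50.2 at NF 20. It was at 53.9 at NF 22, 92.0 at NF 23, 75.8 at NF 24, 172 at NF 26, 150 at NF 29, 144 at NF 32, 89.0 at NF 35 and 65.5 at NF 36. Its high values thus lay at NF 26 to 32. The component with the second highest mean over NF 18 to 20 showed little such growth, with 18.4 at NF 18, 39.0 at NF 19, 23.6 at NF 20, 33.2 at NF 22, 37.4 at NF 23 and 27.0 at NF 24. It stayed at 20.6, 24.9, 30.1, 25.6 and 28.9 at NF 26, 29, 32, 35 and 36.

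The highest single value, 194 at NF 26, belonged to a component that passed through a peak. It stood at 2.64, 12.4 and 23.5 at NF 18, 19 and 20, at 53.0, 44.0 and 120 at NF 22, 23 and 24, and at 194 at NF 26. It was at 23.9 at NF 29, 8.44 at NF 32, 3.88 at NF 35 and 2.44 at NF 36. This component supplied 10.8% of the summed value of the 86 at NF 26 and 0.2% at NF 36. The largest ratio of end to onset, 16.5, belonged to a component with 2.33, 6.18 and 14.2 at NF 18, 19 and 20. It was at 23.9, 22.5, 35.3, 32.1 and 78.4 at NF 22, 23, 24, 26 and 29, and at 89.3, 128 and 158 at NF 32, 35 and 36. The largest ratio of a highest value to the mean of NF 18 to 20, 25.5, belonged to another component, with 4.11, 6.52 and 5.38 in those 3 libraries. It was at 5.27, 3.64, 8.36 and 10.6 at NF 22, 23, 24 and 26, at 53.1, 22.5 and 31.3 at NF 29, 32 and 35, and at 136 at NF 36. Its 2 highest values, at NF 36 and 29, were both in set B libraries.

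The values between NF 20 and NF 32 entered the rule only through its upper limit, which no component that met the other conditions exceeded. The libraries of NF 22, 23, 24, 26 and 29 therefore allowed a test that the choice of the components did not fix. A straight line in library order was fitted with limma to log2(scaled value + 1) of all 48818 components that reached 1 in 4 or more libraries. All 86 components were among them. The slope is the log2 change per step from a library to the next, and on this scale it understates the change of low components. The p-values weigh a slope against the scatter of single libraries about a line. In limma that scatter is drawn toward a value shared by tested components of similar level. Spread between embryos or clutches of a stage is not measured. NF 24 and NF 29, the last library of the line, are in set B, and the fit has no term for set. Set and stage are thus partly mixed in every slope.

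Of the 86 components, 3 rose and 3 fell with stage between NF 22 and 29 (limma, Benjamini-Hochberg adjusted p below 0.05), 6.98% in all. In all tested components 1.23% rose and 0.692% fell, 1.93% in either direction. Of the 80 components of late neurula onset that reached 5 in 4 or more libraries, 5 rose and 5 fell (12.5% in all) when only such components were tested. In all 12778 of these 5.69% rose and 3.97% fell, 9.66% in either direction. The share of calls thus lay near that of other components past this filter, which has no upper limit. In the same setting 34 of the 80 (42.5%) had an unadjusted p below 0.05, against 30.0% of all. With an unadjusted p below 0.05, 13 of the 86 had a positive and 23 a negative slope, 41.9% in all, against 21.8% of all tested components in either direction. The slopes ran from -0.77 to 0.73, with a median of -0.11 (median SE 0.118), against a median of -0.01 over all tested components. A negative slope was found in 54 of the 86 (62.8%), against 53.1% of all tested components. A component that did not pass is not shown to be level. Of the calls among all components 64.0% were higher, and 77.2% with values as deposited, where 3 of the 86 rose and 1 fell.

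The number of calls changed when single libraries were left out, among the 86 and among all tested components. Without NF 22 none of the 86 passed and 17 had an unadjusted p below 0.05, against 0.223% and 13.5% of all tested components. Without NF 23 none passed and 28 had an unadjusted p below 0.05, against 0.186% and 15.0% of all. Without NF 29 none passed and 20 had an unadjusted p below 0.05, against 0.0041% and 9.31% of all. Without NF 26, 7 rose and 7 fell, against 4.32% of all in either direction. Without NF 24, 2 rose and 2 fell, against 1.32% of all. The direction of these changes in number was the same for the 86 and for all components, and nothing particular to the 86 is read from them. Within set A, where NF 32 and 35 had to be added to reach 5 libraries, 8 rose and 28 fell, against 7.86% and 6.87% of all components. Over all 8 libraries from NF 22 to NF 36, 6 rose and 25 fell, against 6.17% and 6.39% of all components. With a term for the library set added, 7 rose and 29 fell, against 6.98% and 7.95%. The rule used NF 32 to 36, and nothing is read from these 3 counts. Within set B, with the 3 libraries of NF 24, 29 and 36, none passed and 20 of the 86 had an unadjusted p below 0.05. Of all 48818 tested components none passed there either, and 5.49% had an unadjusted p below 0.05.

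**Figure D3:**
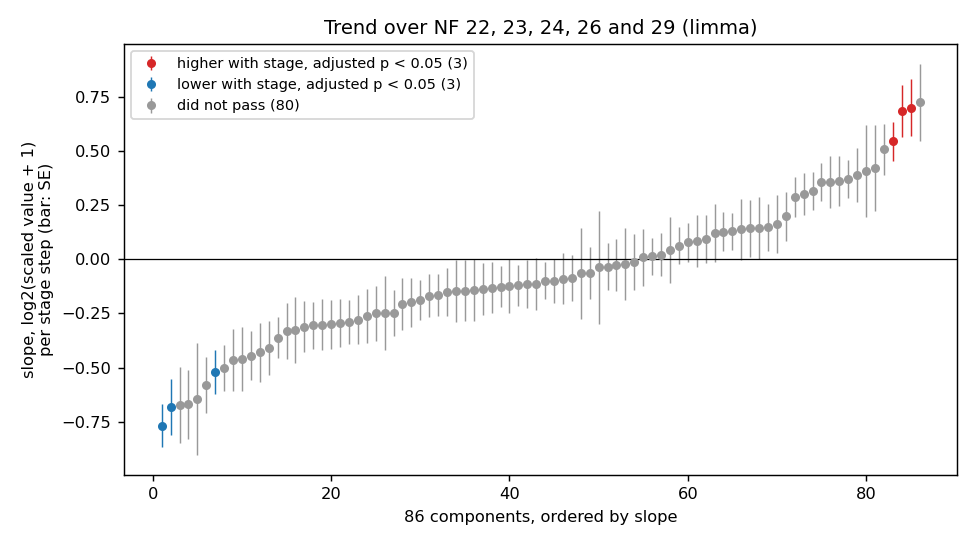
Slope of each of the 86 components over the libraries of NF 22, 23, 24, 26 and 29, in log2(scaled value + 1) per step, with bars of 1 SE, ordered from low to high. The 3 components that rose (red) and the 3 that fell (blue) with stage past the adjusted threshold lie near the ends, beside components of similar slope that did not pass, and 54 of the 86 slopes are below 0.

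The component comp272797_c0 stood at 4.68, 6.04 and 4.37 at NF 18, 19 and 20. It was at 9.19 at NF 22, 9.60 at NF 23, 18.1 at NF 24, 24.3 at NF 26 and 80.9 at NF 29, and at 28.4, 28.3 and 29.2 at NF 32, 35 and 36. NF 29, a set B library, stands alone above the rest. It rose by 0.70 on the log2 scale per step (SE 0.131, limma adjusted p = 0.0404), which is 6.99-fold over the 4 steps on the value + 1 scale. Early values were below 0.40 until NF 13.5, then 0.91 at NF 15 and 0.88 at NF 16, close under the limit of the rule.

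The component comp251821_c0 was listed at 0 in each library up to NF 13, and its highest value before NF 18 was 0.20. It stood at 4.74, 4.71 and 8.51 at NF 18, 19 and 20, and at 9.90, 18.4, 15.1, 34.4 and 93.9 at NF 22, 23, 24, 26 and 29. The highest value was 125 at NF 32, followed by 53.9 at NF 35 and 23.2 at NF 36, so its climb ended within the tailbud stages. Its slope over NF 22 to 29 was 0.69 (SE 0.122, limma adjusted p = 0.0350), or 6.71-fold over the 4 steps. Within set B, over NF 24, 29 and 36, the slopes of comp272797_c0 and comp251821_c0 were -0.03 and -0.06, since NF 36 lay below NF 29 in both.

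The component comp267777_c2 stood at 8.17, 13.2 and 15.5 at NF 18, 19 and 20. It was highest at NF 22, with 17.4, and then at 10.9, 6.74, 3.58 and 1.13 at NF 23, 24, 26 and 29, a descent without a break. It was at 3.99, 5.16 and 2.81 at NF 32, 35 and 36. Its slope of -0.77 (SE 0.100, limma adjusted p = 0.0151) corresponds to 11.9% of the NF 22 level at NF 29 on the value + 1 scale. Among 18 alternative settings it fell past the threshold in 13. The setting with components chosen on scaled values leaves its fit as it is, and some others include libraries that the rule used. The same count was 10 for comp251821_c0, 9 for comp272797_c0 and 9 for comp263751_c0.

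The component comp263751_c0 stood at 9.91, 5.78 and 14.4 at NF 18, 19 and 20. It was at 17.5, 16.9, 7.76, 8.74 and 1.48 at NF 22, 23, 24, 26 and 29, and at 4.35, 4.60 and 4.19 at NF 32, 35 and 36. The set B libraries of NF 19, 24 and 29 each lay below both neighbouring libraries. Its slope was -0.68 (SE 0.130, limma adjusted p = 0.0417), and within set A over NF 22 to 35 it was -0.37 (adjusted p = 0.00225). The set A fit includes NF 32 and 35, which the rule used, and nothing is read from its p-value. Over the 18 alternative settings the adjusted p ran from 0.00225, in that set A fit, to 1. Without NF 29 the slopes of comp272797_c0, comp251821_c0 and comp263751_c0 were 0.44, 0.44 and -0.42, more than 1.5 times smaller, and that of comp267777_c2 was -0.69. Without NF 24, comp272797_c0 (adjusted p = 0.0639) and comp263751_c0 (adjusted p = 0.066) missed the threshold, while over their alternatives the adjusted p of comp272797_c0 ran from 0.0114 to 1. The part of the library sets in the slopes over NF 22 to 29 was not tested for any component. In the fit over NF 22 to 36 with a set term, the slope of comp263751_c0 was -0.315. Its set B minus set A difference was -0.586 (SE 0.352). For comp272797_c0 the slope was 0.153 and the difference 0.748 (SE 0.451), and for comp251821_c0 they were 0.27 and -0.412 (SE 0.68). For comp267777_c2 they were -0.294 and -0.555 (SE 0.403). That fit includes libraries that the rule used.

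**Figure D4:**
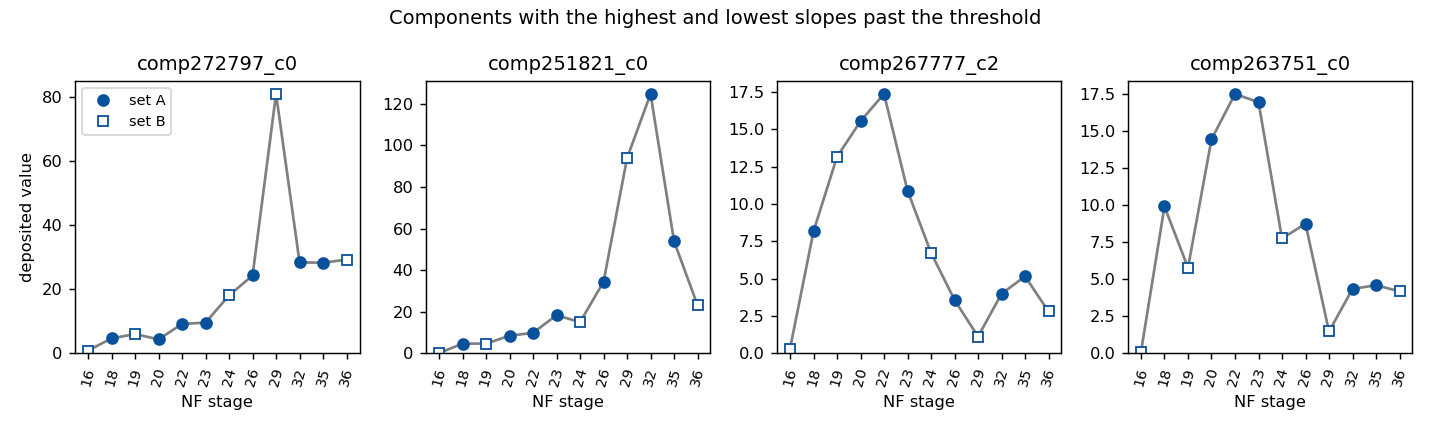
Deposited values of 4 components past the threshold, those with the 2 highest and the 2 lowest slopes, in the libraries of NF 16 to 36, with set A libraries as filled circles and set B libraries as open squares. Each panel has its own linear axis that starts at 0. In comp272797_c0 the value of 80.9 at NF 29 stands alone, while comp251821_c0 is highest at NF 32 and the other 2 are highest at NF 22.

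The 3 groups by end level were compared with these slopes as a description. Of the 25 components that ended at least 2-fold higher, 23 had a positive slope over NF 22 to 29, with a median of 0.32. Of the 36 in between, 9 had a positive slope, with a median of -0.13. Of the 25 that ended at 0.5 times or less, none had a positive slope, with a median of -0.29. In the first and the last of these groups the direction between NF 22 and 29 was thus mostly that of the end level, which the rule bounds from below. The slope and the end level share no library but belong to the same profile.

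Levels in set B libraries were then set beside those of the neighbouring set A libraries. On the log2(scaled value + 1) scale the 86 components differed by a median of 0.26 at NF 19 from the mean of NF 18 and 20, against 0.06 for all tested components. The median difference was 0.09 at NF 24 and 0.09 at NF 29, against 0.02 and 0.04 for all. At NF 29, 15 of the 86 (17.4%) were at least 2-fold lower than the mean of NF 26 and 32 and 7 (8.1%) at least 2-fold higher, against 9.25% and 7.23% of all tested components. At NF 24, 2 were at least 2-fold lower and 4 at least 2-fold higher than their neighbours, against 5.32% and 3.85% of all. At NF 19 these counts were 3 and 7, against 4.01% and 4.22% of all. The rule used NF 18, 19, 20 and 32, so the differences at NF 19 and 29 are a description only. In a fit over NF 22 to 36 with terms for library order and for set, which was chosen after the data were seen, 1 of the 86 was higher and 3 were lower in set B (limma, adjusted p below 0.05). The background was 1.34% higher and 3.53% lower, 4.88% in either direction, so 4 of 86 is a share near it. This fit includes NF 32 to 36, which the rule used, so its calls and p-values are given as a description. Leaving out single libraries moved the 4 calls to between 1 and 6, with 1 left without NF 35 and 2 left without NF 23 or NF 32. The 2380 calls among all 48818 components became 866 without NF 35, 1547 without NF 23 and 1004 without NF 32.

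The lowest of these stood at 1.24 at NF 29 and 2.23 at NF 24, in set B, against 15.7 at NF 22 and 24.7 at NF 23, in set A. It was at 2.07 at NF 19 and 3.11 at NF 36, against 14.0 at NF 20 and 14.8 at NF 32. The 4 set B libraries from NF 18 on thus held its low values, with only the 2.91 of NF 18 beside them. Its set B minus set A difference was -2.20 on the log2 scale (SE 0.268, limma adjusted p = 0.00143), in the fit that includes libraries of the rule.

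Some identifiers share the number before their last part, which in names of this form usually marks contigs that an assembler grouped together. Of the 86 components, 47 (54.7%) shared that number with another component that passed the filter, against 34.4% of all components that passed. With any other component counted, filtered or not, the shares were 60.5% and 53.3%. A partner with a mean of at least 1 over NF 0 to 11 was found for 22 of the 86 (25.6%), against 18.7% of all. These 22 were among the 47. Of all components that passed, 16790 shared a number in this way, and 9114 of them had such an early partner. Among components that shared a number, the share with an early partner was thus not higher in the 86. For these 22, a component with the same number was thus already present in the early embryo. The shares were not tested.

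In 3 cases both members of a pair were among the 86, and the pairs were looked at after their values were seen. In the second pair, the ratio of the second component to the first was 0.179 to 0.349 in the 4 set B libraries from NF 18 on, against 0.719 to 1.16 in the 7 set A libraries. In the third pair it was 1.64 to 2.84 in set B libraries, against 0.201 to 1.06 in set A libraries. In neither of these pairs did the sets overlap. The ratios were not computed for other components that share a number, so nothing particular to these pairs is read from this. The first pair showed no such separation, with 0.602 to 1.57 in set B libraries and 0.960 to 1.99 in set A libraries.

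The third pair shows the exchange in single values. Its second component stood at 11.8, 27.9, 48.9 and 24.1 at NF 19, 24, 29 and 36, in set B. The same component was at 6.12, 12.2, 9.12 and 19.2 at NF 20, 23, 26 and 32, in set A. Its first component stood at 6.17, 17.1, 17.2 and 9.45 at NF 19, 24, 29 and 36, in set B, against 13.0, 29.1, 45.5 and 45.0 at NF 20, 23, 26 and 32, in set A. The second component was thus the larger in set B libraries and the first in most set A libraries, while both had appeared at NF 18 with 5.13 and 4.84. The set difference was 1.42 on the log2 scale for the second component (SE 0.320, limma adjusted p = 0.0318) and -1.10 for the first (SE 0.333, adjusted p = 0.0903), which did not pass. Both come from the fit that includes libraries of the rule.

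**Figure D5:**
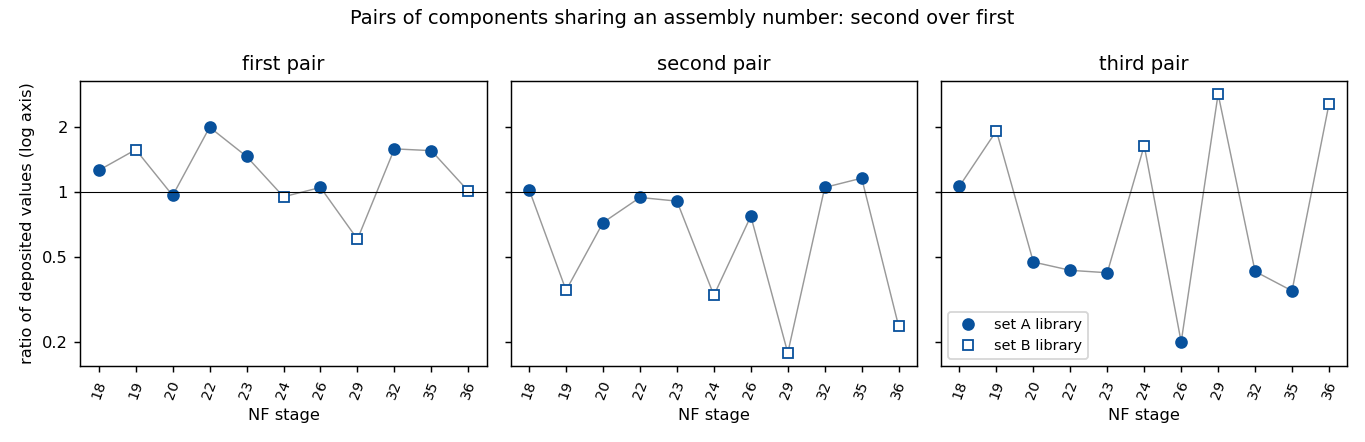
Ratio of the second to the first component in 3 pairs that share an assembly number, on a logarithmic axis, in the libraries of NF 18 to 36, with set A libraries as filled circles and set B libraries as open squares. In the second pair the set B ratios (0.179 to 0.349) lie below all set A ratios, in the third (1.64 to 2.84) above all of them, and in the first the sets overlap.

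The rule moved to an earlier onset gave 25 components, below 1 in each library up to NF 13.5 and at least 2 at NF 15 and 16. The mean of at least 5 was there taken over 2 onset libraries in place of 3. Moved to the early tailbud, NF 22 to 24, the rule gave 4. The scale factors were 0.632 and 0.701 at NF 15 and 16, and 0.833 to 1.03 at NF 18 to 20. The same deposited value is thus a higher scaled value at NF 15 and 16, and the counts rest on unlike limits. The median of the components of late neurula onset was 9.00 at NF 20 and 6.49 at NF 36, against 18.3 and 9.42 for those of mid neurula onset. Over NF 22 to 29 the late neurula components had a median slope of -0.11, against -0.17 for those of mid neurula onset, of which none passed the threshold in limma and 8 of 25 had an unadjusted p below 0.05. The differences between these lists were not tested.

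The number of components depended on the limits of the rule. Components that met all other conditions but reached 1 before NF 18 numbered 6966. A mean under 5 over NF 18 to 20 alone kept out 234, an end level under 25% alone 24, and a value under 2 in a library of NF 18 to 20 alone 9. The values nearest to the limits were 0.97 inside and 1 outside for the highest early value, 5.01 and 4.97 for the mean of NF 18 to 20, and 0.257 and 0.247 for the end ratio. The 86 are therefore the part of a continuous range that these limits mark off.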

How the data were processed

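One table of whole-embryo RNA from 24 stages was used, with 275906 assembled components, 24 library columns and 0 unmapped columns. The deposited values are a signal per component, normalized before deposit. They have 2 decimals and only 0.458% of those above 0 are whole. CASAVA 1.8.2, Trimmomatic, Bowtie and RSEM are named in the submitters' processing notes, without a role. Assembler and unit are not given in the sources used here, and depth in reads is unknown. Ribosomal RNA was depleted before 14 cycles of PCR, per the labels' protocols.

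The components were found on deposited values with Python 3.11.15. For tests, libraries were scaled by the median of ratios over 15471 components detected in all libraries (factors 0.632 to 1.47). limma 3.58.1 (R 4.3.3, trended and robust variances) was run on log2(scaled value + 1) over the 48818 components that reached 1 in 4 or more libraries. On simulated data the slopes were estimated close to the planted ones, but the test called few or none of the planted changes unless they were steep. A first simulation, with the raw residual spread as noise, gave no calls at its planted slopes, and steeper slopes and a moderated spread were added after that was seen. The named components are the 2 highest and 2 lowest slopes past the threshold. The 86 components, the lists and the tests were chosen with earlier results of these data known. Other scalings, pseudocounts, filters, stage terms, library sets and limits of the rule were tried.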

Additional observations from a re-analysis of the deposited data

How the results depend on the processing

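The 86 components became 30 with a limit of 0.5 before NF 18, 281 with a limit of 2, 14 with a mean of at least 10 over NF 18 to 20, 183 when NF 16 was not required to be low, and 174 without the set B libraries. The other 6 alternatives stayed within 1.5 times. On values scaled by the median of ratios there were 64, of which 51 were among the 86. The 6 components called over NF 22 to 29 became 0 without a filter (5 at an unadjusted p below 0.05, limma), 10 at a value of at least 5, 12 with the NF stage number in place of library order, 1 without robust variances, 31 over NF 22 to 36 and 36 with a set term added, 36 within set A and 0 within set B (20 at an unadjusted p below 0.05). The 940 calls among all components moved likewise, to 0 without a filter, 2379 with the NF stage number, 119 without robust variances and 0 within set B. With 1 library left out the count ran from 0 to 14. A filter alters the number of components tested and other libraries alter what is tested, and other causes were not tested. The median slope of -0.11 per step stayed between -0.17 and -0.09 over the alternatives in library order, and between -0.12 and -0.10 with a library left out. With the NF stage number it was -0.065, which is per unit of stage number and not per step. Within set B, comp272797_c0 had a slope of -0.031 and comp251821_c0 one of -0.057. The 4 set differences became 7 of 80 at a value of at least 5, against 1789 of all 12778 components tested there. With a library left out they numbered 1 to 6, against 866 to 2256 of all 48818. Set-based alternatives were chosen after the data were seen. No paired analysis was possible because no stage had a second library.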
